A study of Homo sapiens with 23 samples.

Results

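Chromatin remodelers and the enzymes that write, erase or read marks on histones and DNA were followed in human thalamus organoids (ThOs), in libraries labelled WT, KO and OE for c-JUN. The members were the genes whose symbols belong to the SMARC, ARID, CHD, KDM, KMT, SETD, HDAC, EZH, DNMT, TET, BRD, SIRT, KAT, PBRM1 and INO80 families, apart from KDM3A and genes on the Y chromosome. Of the 9497 genes measured, 99 were members. They comprised 14 BAF subunits, 10 CHD remodelers, 38 methylation enzymes, 24 acetylation genes and 13 others such as SMARCA5 and INO80, the last group including BRD3OS, a transcript named after its neighbour BRD3 rather than for an enzyme.

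ThOs were grown from H1, an established human embryonic stem cell line, and bulk RNA was sequenced after 25 and 30 days of culture. WT ThOs came from unedited H1 cells, KO ThOs from H1 cells whose c-JUN gene had been targeted by CRISPR/Cas9, and OE ThOs from the knockout line carrying a doxycycline-inducible c-JUN transgene. Every genotype and day had 2 libraries, each from 3 pooled ThOs by the labels, which made 12 libraries in 6 groups. The labels do not say which knockout clone each KO library came from, and the genotype tag of the OE libraries reads as knockout, so OE was taken from the sample titles. The 11 ATAC-seq and CUT&Tag samples of the series were not analysed here.

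DNA in the nucleus is wound around histones, and its access is set by several enzyme systems. BAF (SWI/SNF) complexes slide or evict nucleosomes with ATP, and neural progenitors and neurons are known to build them from different subunits. CHD proteins are a second family of ATP-driven remodelers, some of which sit in the NuRD complex with the histone deacetylases HDAC1 and HDAC2. Acetyltransferases (KATs) and deacetylases (HDACs and sirtuins) add and remove acetyl groups that bromodomain proteins read, KMT, SETD and EZH enzymes methylate histones, KDM enzymes reverse this, and DNMT and TET enzymes add and oxidise methyl groups on DNA. Several of these genes are known for neurodevelopmental disorders when 1 copy is lost.

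Values are the authors' normalized, rounded expression values, with no unit stated, and the depth behind them is unknown. Each library had a median of 106, and every gene exceeded 10 everywhere. Since the values are not known to be scaled per length, levels are compared between libraries and never between genes. High values fall on shared steps, which is why the same number can recur in several libraries. JUN itself was listed at 139 and 153 (day 25) and 128 and 162 (day 30) in WT, at 353 and 196 and then 222 and 248 in the libraries labelled KO, and at 224 and 212 and then 362 and 202 in OE. The 4 values labelled KO thus lay above the 4 WT values (exact permutation test, two-sided, p = 0.02857, the smallest this design allows), and OE and KO were not separated (p = 0.8857), so directions below are those of libraries as labelled. In other material, the study reported c-JUN protein absent from its knockout lines by western blot and induced by doxycycline. It also reported c-JUN mRNA absent by RT-qPCR in knockout neural progenitors and cerebral organoids. Of the thalamus markers, 7 of 15 were measured, among them TCF7L2 and LHX9, and the others were not analysed here.

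Promoters are shown first because c-JUN is a subunit of AP-1, a factor that binds the 7-base element TGACTCA or its reverse complement TGAGTCA. RefSeq (GRCh38.p14) promoters, 250 bases before to 50 after a gene's start, were matched by symbol for 85 of the 99 members. The element, searched on both strands, was present in 3 of them, or 3.529%, against 2.392% of the 7817 promoters of measured genes and 4.922% of 27305 promoters in the table. The windows around the 3 matches are printed with the element in capitals, each on the plus strand.
KDM4C, chr9:6757877-6757957: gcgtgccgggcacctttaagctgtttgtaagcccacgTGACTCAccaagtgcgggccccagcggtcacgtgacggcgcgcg
KDM6A, chrX:44873041-44873121: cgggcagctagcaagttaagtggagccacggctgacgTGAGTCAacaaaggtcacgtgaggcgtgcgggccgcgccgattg
SMARCB1, chr22:23786766-23786846: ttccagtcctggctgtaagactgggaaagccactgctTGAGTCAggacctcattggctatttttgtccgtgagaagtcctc
The element starts 59 bases before the RefSeq start in KDM4C, a histone H3 demethylase, 110 before it in KDM6A, the X-linked demethylase that removes the Polycomb mark, and 163 before it in SMARCB1, a core BAF subunit. For comparison, the 100 bases before the RefSeq start are given for HDAC2 and HDAC9, which separated OE from KO in the results that follow and whose 300-base promoters hold no match.
HDAC2, chr6:113971149-113971248, minus strand: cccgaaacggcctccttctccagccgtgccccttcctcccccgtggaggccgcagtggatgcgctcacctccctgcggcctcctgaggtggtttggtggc
HDAC9, chr7:18495649-18495748, plus strand: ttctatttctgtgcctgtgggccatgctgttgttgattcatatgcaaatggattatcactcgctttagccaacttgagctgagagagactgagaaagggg
G and C made up 64% of the HDAC2 promoter and 47.3% of that of HDAC9, whose RefSeq start lies inside the measured gene, against a median of 67% over the 85 member promoters. These matches describe letters only, and binding was not measured in the files used here.

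The first comparison asked which members differ between the libraries labelled KO and WT. In limma's test with Benjamini-Hochberg adjustment over 9497 genes, 0 of 99 members passed an adjusted p of 0.05 between KO and WT over both days, where 0.0211% of all genes passed, and 0 passed at day 25 (0.0105% of all genes) or at day 30 (0%). At an unadjusted p of 0.05, 12 members differed over both days, or 12.1% of members against 15.2% of all genes, with 2 higher in KO (7.01% of all genes were) and 10 lower (8.16%). The median member lay 0.13 lower in KO on the log2(value + 1) scale, against 0.02 lower for the median of all genes. By class these medians were -0.14 for BAF, -0.06 for CHD, -0.15 for methylation and -0.12 for acetylation.

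The lower values in KO were mainly at day 25. There, 32 of 99 members lay above WT, against 48.4% of all genes, and the medians were -0.17 for BAF, -0.07 for CHD, -0.28 for methylation and -0.05 for acetylation. Among the smaller classes the bromodomain readers (median -0.38, 1 of 5 above WT) and the histone demethylases (median -0.37, 2 of 14 above WT) had the lowest medians. The 2 KO libraries of day 25 were unequal in this. Measured from each gene's mean over the 12 libraries, the median member lay at -0.01 in the first KO library of day 25 and at -0.21 in the second, and the medians were -0.04 and -0.24 for BAF, 0.08 and -0.15 for CHD, 0.02 and -0.29 for methylation and -0.10 and -0.08 for acetylation. At day 30 the median member differed by -0.01 between KO and WT, and 49 of 99 lay above WT, against 49.5% of all genes. The KO minus WT difference had the same sign on both days in 60 members (39 lower and 21 higher), or 60.6%, against 59.4% of all genes, and these day-25 and day-30 comparisons share no library.

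**Figure D1:**
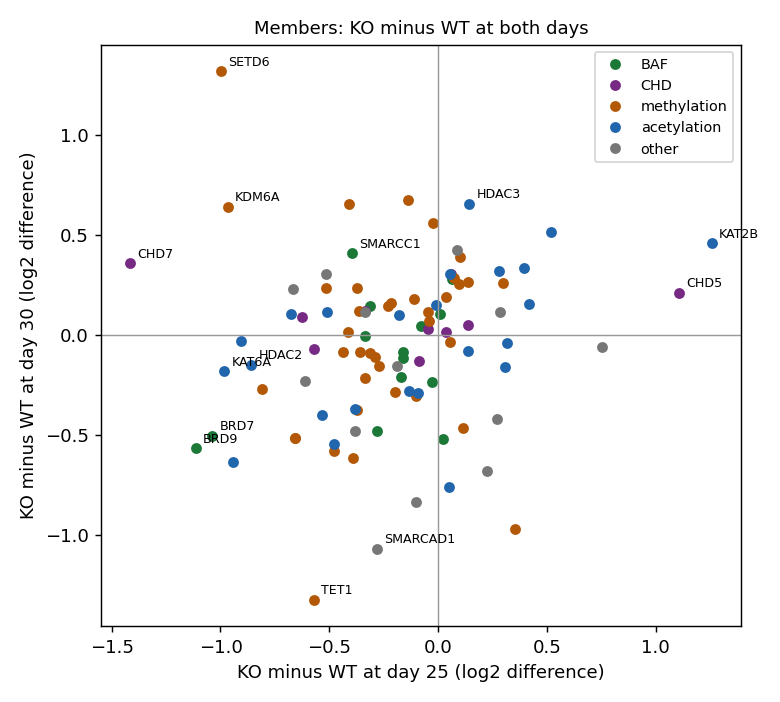
Each point is 1 of the 99 members, with its KO minus WT log2 difference at day 25 on the horizontal axis and at day 30 on the vertical axis, coloured by class. The upper left holds members such as CHD7, KDM6A and SETD6 that were lower in KO at day 25 and higher at day 30, and 28 members lie in that quadrant.

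Among BAF genes BRD7, a bromodomain subunit of the PBAF form, and BRD9, one of the non-canonical form, had the lowest KO minus WT differences. BRD9 was 132 and 94 in WT and 86 and 30 in KO at day 25, and 106 and 107 in WT and 84 and 61 in KO at day 30. All 4 KO libraries lay below all 4 WT libraries, with a log2 difference of -0.84 ± 0.30 (SE), an unadjusted p of 0.0163 and an adjusted p of 0.241 (limma). BRD7 was 127 and 96 in WT and 66 and 43 in KO at day 25, then 120 and 110 in WT and 114 and 57 in KO at day 30. The groups overlapped in BRD7 through the first KO library of day 30, and the difference was -0.77 ± 0.24 (SE, limma adjusted p = 0.211).

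The BAF subunits SMARCA4, ARID1A, ARID1B, PBRM1 and SMARCC1 did not show differences of that size over both days. SMARCA4, the ATPase, ranged from 700 to 732 in WT, from 650 to 822 in KO and from 700 to 922 in OE, so the 3 genotypes overlapped. ARID1A, the DNA-binding subunit, ranged from 390 to 563 in WT and from 284 to 508 in KO, ARID1B from 222 to 262 and from 204 to 262, and PBRM1 from 340 to 357 and from 251 to 411. SMARCC1, a core scaffold, was 455 and 462 in WT against 372 and 325 in KO at day 25, but 412 and 417 against 496 and 609 at day 30. The KO libraries of SMARCC1 were thus below WT on day 25 and above it on day 30, and neither day passed the adjustment (limma adjusted p = 0.368 and 0.643). SMARCA2 was not analysed here.

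HDAC2 and HDAC3, both catalytic subunits of corepressor complexes, had differences of opposite sign. HDAC2 was 496 and 619 in WT against 342 and 272 in KO at day 25, and 564 and 588 against 532 and 506 at day 30. Both KO libraries lay below both WT libraries on each day, although KO at day 30 overlapped WT at day 25, and the difference over both days was -0.50 ± 0.13 (SE, unadjusted p = 0.00215, limma adjusted p = 0.176). HDAC3, which works in the NCoR complex, was 157 and 162 in WT against 188 and 165 in KO at day 25, and 136 and 129 against 167 and 262 at day 30. All 4 KO libraries of HDAC3 exceeded all 4 WT libraries, with a difference of 0.40 ± 0.17 (SE, limma adjusted p = 0.311), and it was the only member to do so, or 1.01% of members against 2.74% of all genes. BRD9 and SMARCAD1, a remodeler of the SMARC family outside BAF, were the only members with all KO libraries below WT, or 2.02% against 3.14%.

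SMARCAD1 was 272 and 320 in WT against 232 and 254 in KO at day 25, and 313 and 308 against 222 and 98 at day 30, a difference of -0.67 ± 0.22 (SE, limma adjusted p = 0.221). SIRT1, an NAD-dependent deacetylase, was 71 and 72 in WT against 42 and 32 in KO at day 25, and 103 and 101 against 75 and 57 at day 30. KO lay below WT within each day in SIRT1, and the difference was -0.79 ± 0.23 (SE, limma adjusted p = 0.197). KAT6A, an acetyltransferase of the MYST family, was 288 and 292 in WT against 162 and 132 in KO at day 25, but 293 and 252 against 322 and 178 at day 30, where the groups overlapped.

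The KO minus WT differences of CHD7 and KDM6A had opposite signs on the 2 days. CHD7, a remodeler known for CHARGE syndrome, was 590 and 396 in WT against 308 and 106 in KO at day 25, and 332 and 410 against 460 and 486 at day 30. KDM6A was 72 and 56 in WT against 32 and 32 in KO at day 25, and 46 and 50 against 70 and 81 at day 30. In both genes the KO libraries lay below WT on the first day and above it on the second, as in SMARCC1 and KMT2C. The KO minus WT difference of CHD7 was -1.41 ± 0.38 at day 25 and 0.36 at day 30, and that of KDM6A was -0.97 ± 0.28 and 0.64 ± 0.28 (SE). The test of the difference between days gave 1.77 ± 0.54 for CHD7 and 1.61 ± 0.39 for KDM6A (SE, unadjusted p = 0.00742 and 0.00174), with a limma adjusted p of 0.802 for each, and 0% of all genes passed that test, while 5.63% had an unadjusted p under 0.05. The CHD7 value was 1.01 without the second KO library of day 25 and 2.54 without the first.

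The second comparison asked which members differ between the libraries labelled OE and KO. Over both days, 4 of 99 members passed an adjusted p of 0.05 between OE and KO, against 3.3% of all genes. HDAC2, HDAC9 and KAT6A rose and CHD5 fell. With a 2-fold limit added, HDAC9 and CHD5 remained, or 2 of 99 against 2.22% of all genes. At day 25, HDAC2 was the only member called, at 2-fold or more (0.274% of all genes), and at day 30 there was none (0.0842%). All OE against KO and KO against WT values share the 4 KO libraries, so they are given side by side and not set against each other.

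HDAC2, a class I deacetylase of the NuRD, Sin3 and CoREST complexes, was 619 and 689 in OE against 342 and 272 in KO at day 25, and 689 and 689 against 532 and 506 at day 30. Every OE library lay above every KO library and at or above every WT library. The difference was 0.75 ± 0.13 (SE, 1.68-fold, limma adjusted p = 0.0169) over both days, 1.10 at day 25 (adjusted p = 0.0439) and 0.41 at day 30 (adjusted p = 0.452). The day-25 call held in 1 of 4 fits that left out a day-25 library of KO or OE. The adjusted p (limma) was 0.0567 without the second KO library, with a difference of 0.93, and 0.24 and 0.287 without the first and the second OE library.

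HDAC9, a class IIa deacetylase that works mainly as a corepressor of MEF2 factors, was 224 and 228 in OE against 90 and 85 in KO at day 25. At day 30 it was 111 and 206 in OE against 101 and 89 in KO, and WT lay at 94 and 105, then 80 and 98. The 4 OE libraries thus exceeded the 8 others, narrowly in the first OE library of day 30. The difference from KO was 1.01 ± 0.21 (SE, 2.02-fold, limma adjusted p = 0.032), and that from WT was 0.97 ± 0.21 (SE, adjusted p = 0.139).

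KAT6A was 375 and 335 in OE against 162 and 132 in KO at day 25, but 288 and 293 against 322 and 178 at day 30. The separation was a day-25 one, since on day 30 the first KO library exceeded both OE libraries, and the difference over both days was 0.77 ± 0.19 (SE, limma adjusted p = 0.0488).

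CHD5, a neuronal CHD remodeler of NuRD, ran in the opposite direction. It was 38 and 20 in OE against 52 and 101 in KO at day 25, and 24 and 24 against 70 and 112 at day 30, with WT at 52 and 21, then 55 and 106. All OE libraries lay below all KO libraries, with a difference of -1.60 ± 0.37 (SE, limma adjusted p = 0.0435).

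The 4 calls depended on single libraries. The adjusted p of HDAC2 (limma) rose to 0.0544 and 0.0809 without either OE library of day 25 and to 0.0923 without the second of day 30, and its difference stayed between 0.67 and 0.83. HDAC9 lost the call without the second KO library of either day, either OE library of day 25 or the second OE library of day 30, at adjusted p from 0.0523 to 0.149. KAT6A and CHD5 kept it only without the first KO library of either day, and otherwise had adjusted p from 0.0833 to 0.187 and from 0.0749 to 0.18. By the 2-fold rule the number of members called ran from 0 to 10 when 1 library was left out. It was 10 without the first KO library of day 30 (10.1% of members, against 10.2% of all genes), 6 without the first of day 25 (6.06% against 3.17%), 1 without the first OE library of day 30 (1.01% against 1.71%), and 0 without any one of the other 5.

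**Figure D2:**
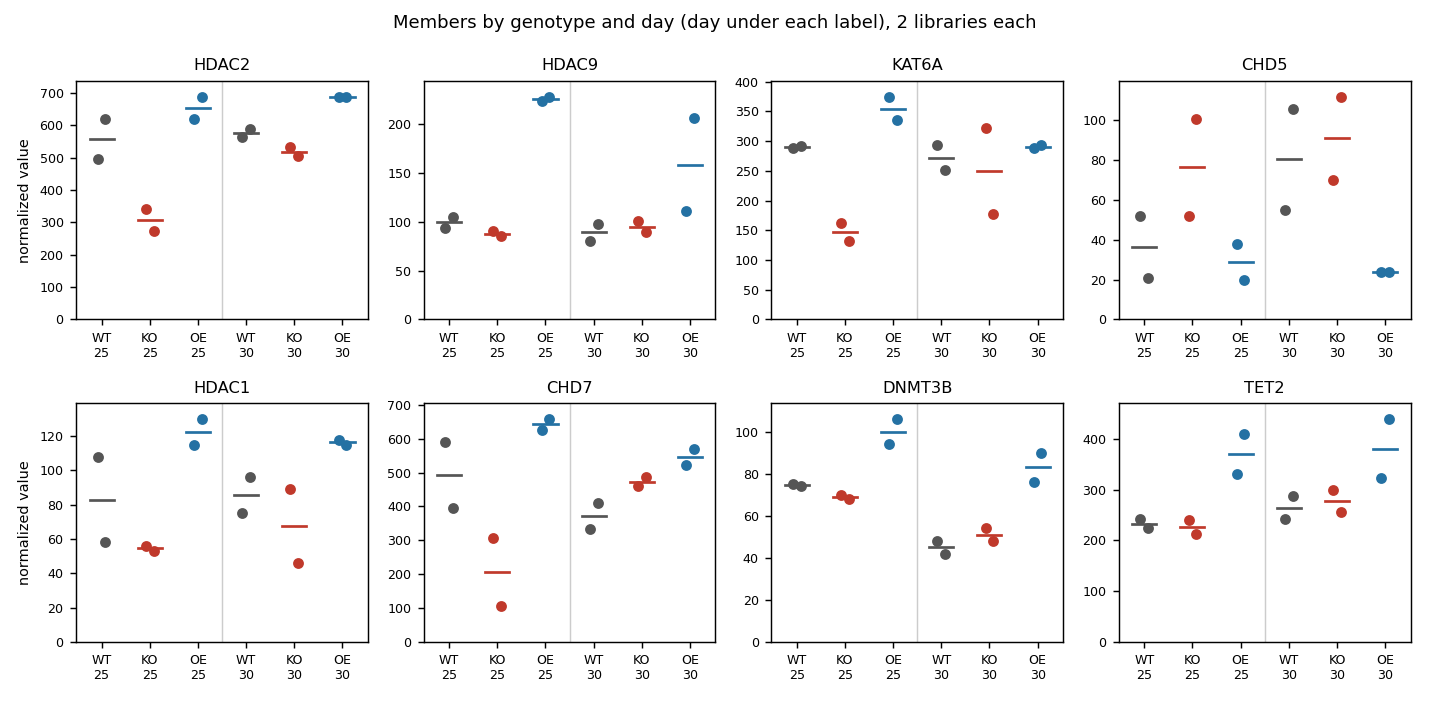
Normalized value (vertical axis, from 0) of 8 members in each of the 12 libraries by genotype and day, with points for libraries and a bar for the mean of 2. HDAC2, HDAC9, HDAC1, CHD7, DNMT3B and TET2 have all 4 OE libraries above all 4 KO libraries, CHD5 has them below, and KAT6A separates at day 25 alone.

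With the called members included, more members were higher in OE than lower. At an unadjusted p of 0.05, 21 were higher and 2 lower in OE than in KO, where 11.5% of all genes were higher and 10.7% lower. All OE libraries exceeded all KO libraries in 12 members (12.1%, against 5.17% of all genes) and lay below them in 2 (2.02%, against 4.51%). Of the 99, 70 had a positive difference, against 51.4% of all genes, and the median was 0.17 against 0.01. The class medians were 0.11 for BAF, 0.12 for CHD, 0.20 for methylation and 0.13 for acetylation, and within methylation 0.42 for the 6 DNA methylation genes. This shift lay mainly at day 25. From each gene's mean over the 12 libraries, the median member lay at 0.17 and 0.13 in OE and at -0.01 and -0.21 in KO. At day 30 it lay at 0.03 and 0.06 in OE and at 0.04 and -0.06 in KO, which overlapped. All 4 OE libraries stood above all 8 others in 5 members, HDAC1, HDAC9, DNMT3B, TET2 and SMARCB1, or 5.05% against 1.66% of all genes, and in 0 members they stood below (1.25%).

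**Figure D3:**
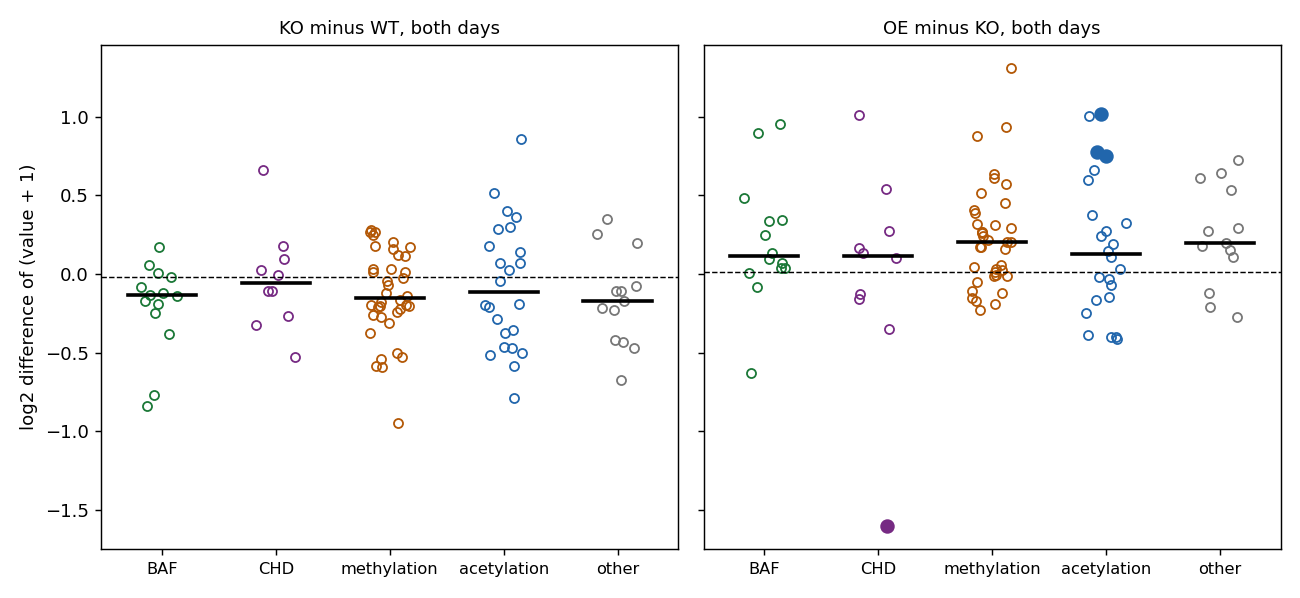
Log2 differences of the 99 members by class, KO minus WT on the left and OE minus KO on the right, both over the 2 days. Bars mark class medians, the dashed line the median of all 9497 genes, and filled points the 4 members at a limma adjusted p under 0.05. Medians lie below the line on the left and above it on the right, and both panels use the same KO libraries.

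The DNA methylation enzymes held 2 of those 5 genes. DNMT3B, a de novo DNA methyltransferase, was 94 and 106 in OE at day 25 and 76 and 90 at day 30. It was 75 and 74, then 48 and 42, in WT and 70 and 68, then 54 and 48, in KO. OE was above both other genotypes, and within each genotype both day-30 libraries lay below both day-25 libraries. The difference was 0.61 ± 0.18 from KO (SE, limma adjusted p = 0.0931) and 0.64 ± 0.18 from WT (adjusted p = 0.286). TET2, which oxidises methylcytosine, was 331 and 410, then 322 and 439, in OE against 212 to 300 in KO and 224 to 287 in WT, with a difference of 0.57 ± 0.16 from KO (SE, adjusted p = 0.0716).

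TET1, a relative of TET2, had a single low KO library. It was 298 and 416, then 330 and 366, in OE against 147 and 180, then 303 and 48, in KO, where 48 is the second library of day 30. The difference was 1.31 ± 0.43 (SE, limma adjusted p = 0.112), and 0.65 without that library. DNMT1, the maintenance methyltransferase, was 414 and 352, then 356 and 380, in OE and 288 to 332 in WT, while KO ran from 260 to 366. DNMT3A ranged from 472 to 628 in OE, from 491 to 572 in KO and from 500 to 876 in WT, with no separation. TET3 likewise overlapped, at 213 to 289 in OE and 178 to 248 in KO.

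Of the histone methyltransferases, EZH2, the catalytic subunit of Polycomb repressive complex 2, was 102 and 98, then 84 and 111, in OE against 78 and 30, then 72 and 40, in KO. OE lay above KO throughout, with a difference of 0.93 ± 0.31 (SE, limma adjusted p = 0.117), while WT (76, 78, 64 and 93) overlapped both. Its paralog EZH1 ranged from 88 to 128 in OE, 94 to 118 in KO and 72 to 105 in WT. The trithorax-type enzymes KMT2A (318 to 420 in OE, 148 to 454 in KO) and KMT2D (186 to 340 and 148 to 466) overlapped, as did SETD1A (81 to 98 and 82 to 134) and SETD2 (308 to 353 and 196 to 362).

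Among the demethylases, KDM6A was 94 and 76 in OE against 32 and 32 in KO at day 25, but 70 and 70 against 70 and 81 at day 30. KDM6B, the other remover of the Polycomb mark, was 197 and 291, then 182 and 232, in OE against 133 and 82, then 214 and 90, in KO, a difference of 0.88 ± 0.27 (SE, limma adjusted p = 0.0998). KDM1A (LSD1), the flavin-dependent demethylase of CoREST, passed the adjusted test in no comparison and was 402 and 470, then 562 and 550, in OE, against 280 and 376, then 376 and 448, in WT. Within each day its OE libraries exceeded WT, and the difference was 0.43 ± 0.15 (SE, adjusted p = 0.432). KDM5B overlapped in all genotypes, at 533 to 678 in OE, 438 to 662 in KO and 564 to 678 in WT.

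In the CHD family, CHD7 was 626 and 658 in OE against 308 and 106 in KO at day 25 and 522 and 568 against 460 and 486 at day 30. OE exceeded KO in every library, with a difference of 1.01 ± 0.27 (SE, limma adjusted p = 0.0685), and the gap was narrow at day 30. CHD4, the main ATPase of NuRD, kept within 947 and 1159 over all 12 libraries and CHD3, its paralog, within 559 and 1158. CHD8, linked to autism, ran from 352 to 406 in OE and from 282 to 432 in KO. CHD1 was 322 and 332 in OE against 194 and 156 in KO at day 25 and overlapped at day 30 (276 and 310 against 240 and 279).

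HDAC1, the partner of HDAC2, was 115 and 130, then 118 and 115, in OE against 56 and 53, then 89 and 46, in KO, and 108 and 58, then 75 and 96, in WT. OE lay above both other genotypes, by 1.00 ± 0.26 from KO (SE, limma adjusted p = 0.0623). HDAC3 was 134 and 142, then 150 and 155, in OE and lay below all KO libraries, by -0.40 ± 0.17 (SE, adjusted p = 0.202). SMARCB1, whose promoter match is printed above, was 382 and 380, then 387 and 444, in OE against 323 and 328, then 334 and 184, in KO and 306 to 368 in WT, a difference of 0.48 ± 0.18 from KO (SE, adjusted p = 0.15). The acetyltransferases KAT2A (88 to 133 in OE, 72 to 164 in KO) and KAT2B (24 to 56 and 36 to 62) overlapped between the genotypes over both days. At day 25 alone KAT2B was higher in KO than in WT without overlap, by 1.26 ± 0.49 (SE, limma adjusted p = 0.3). Its OE libraries of that day lay below KO, by -0.83 ± 0.49 (SE, limma adjusted p = 0.403).

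Proliferating cells were measured alongside. The summed value of 12 of 12 proliferation markers such as MKI67, TOP2A and PCNA ran from 3581 to 3945 in OE, from 2020 to 2718 in KO and from 2498 to 3505 in WT. OE thus lay above both, and 5 of the 12 were called higher in OE than in KO. Over all genes 3.3% passed an adjusted p of 0.05 between OE and KO over both days (limma), counting both directions together. The summed value of 9 of 10 choroid plexus and roof plate markers ran from 1726 to 4469 in OE and from 2310 to 6297 in KO. Its median was 4395.5 in OE and 3625.5 in KO, although 4 of the markers were called lower in OE. The progenitor list (8 of 10 measured) ran from 6723 to 7400 in OE and from 4105 to 7006 in KO, with 1 called higher. The neuron list (11 of 12 measured) ran from 8567 to 12179 and from 8696 to 11440, with 1 called lower, and 7 of 15 thalamus markers ran from 1411 to 2330 and from 1167 to 2117. No measured marker was at 0, since every gene exceeded 10, the 2 of 8 mesenchyme markers measured ran from 128 to 318 in OE and from 261 to 980 in KO, and 0 of 6 pluripotency markers were measured. The part of these cell types in the member results was not tested, and in bulk samples fewer cells of a type and less RNA per cell cannot be told apart.

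The deacetylases summed to 2077 to 2294 in OE, 1593 to 2013 in KO and 1768 to 1984 in WT. Without HDAC1, HDAC2 and HDAC9, the other 9 deacetylases summed to 1159 to 1247 in OE, 1173 to 1372 in KO and 1070 to 1202 in WT, which overlapped. Each gene left out had all OE libraries above all KO libraries and was picked with that known. The overlap of the rest thus follows in part from the choice. The DNA methylation sum was 1769 to 2096 in OE and 1421 to 1684 in KO, and 1624 to 2085 in WT. Within it DNMT3B and TET2 had all OE libraries above all KO libraries, while DNMT1, DNMT3A, TET1 and TET3 overlapped. BAF subunits summed to 4363 to 4943 in OE, 3583 to 4490 in KO and 4259 to 4574 in WT, so those ranges overlapped.

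**Figure D4:**
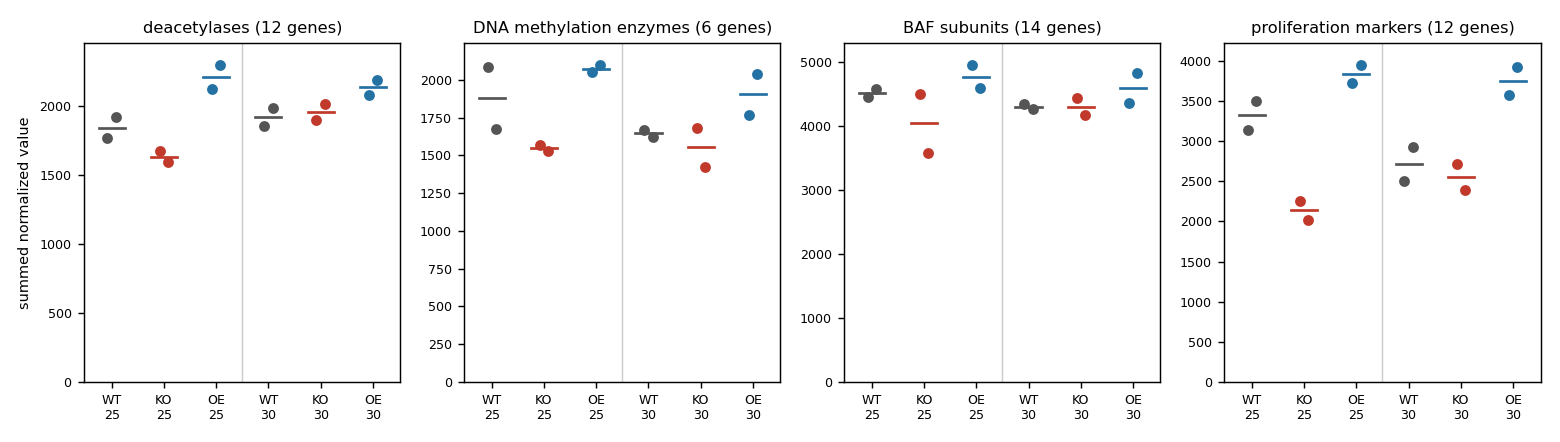
Summed normalized values (vertical axes, from 0) of 12 deacetylases, 6 DNA methylation enzymes, 14 BAF subunits and 12 proliferation markers in each library by genotype and day, with bars for the mean of 2. The OE libraries stand above KO in the deacetylase, DNA methylation and proliferation panels and overlap it in the BAF panel. Of the DNA methylation enzymes, DNMT3B and TET2 alone separated OE from KO in every library. Without HDAC1, HDAC2 and HDAC9, picked with their own separation known, the other 9 deacetylases overlap too (1159 to 1247 in OE, 1173 to 1372 in KO).

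OE against WT showed less. Over both days 0 of 99 members passed the adjusted test, where 0.211% of all genes did, and 7 passed an unadjusted p of 0.05, or 7.07% against 8.21%, with 5 higher (3.53% of all genes) and 2 lower (4.69%). All OE libraries exceeded WT in 8 members (8.08%, against 4.13% of all genes), namely BRD2, DNMT1, KDM5C and the 5 that also exceeded KO. SMARCD2, a BAF subunit, was 27 and 36, then 34 and 16, in OE and lay below 72 and 40, then 68 and 48, in WT, a difference of -1.01 ± 0.42 (SE, limma adjusted p = 0.547), and it was the only member to lie so (4.34% of all genes).

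Between day 25 and day 30, 0 of 99 members and 0% of all genes passed the adjusted test (limma). At an unadjusted p of 0.05, 13 members differed, or 13.1% against 11.3% of all genes, with 4 higher at day 30 (5.76% of all genes) and 9 lower (5.54%). Of those 9, 7 were methylation enzymes, the largest class with 38 of the 99 members. DNMT3B had a day difference of -0.47 ± 0.15 (SE, adjusted p = 0.325), and KDM1A one of 0.39 ± 0.12 (SE, adjusted p = 0.283). No member had all 6 libraries of one day above all 6 of the other, and 0.295% of all genes were higher and 0.474% lower in that way.

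The KO libraries differed most among themselves. In each KO group 12 of 99 members differed 2-fold or more between the 2 replicates, or 12.1%, against 0 to 3 members in the WT and OE groups, and in all genes 17.4% at day 25 and 21.5% at day 30. The second KO library of day 30 held the highest or lowest of the 12 values for 41 members (41.4%, against 45.2% of all genes). The second KO library of day 25 held the lowest value for 32 members, or 32.3%, against 14.5% of all genes.

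**Figure D5:**
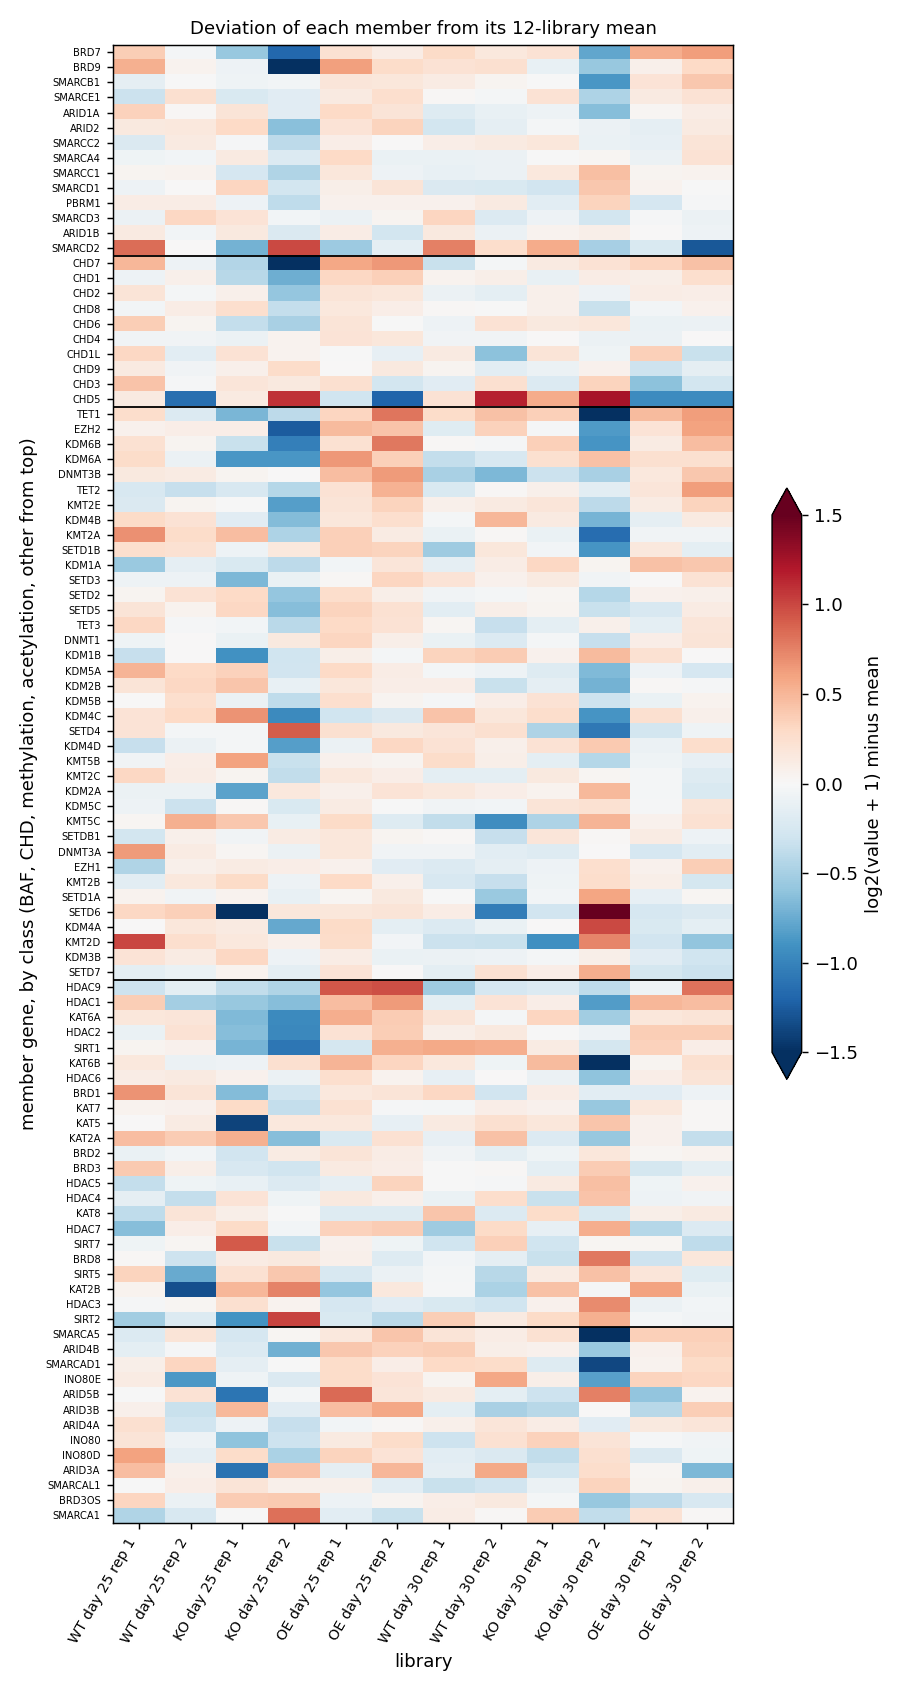
Log2(value + 1) of the members, 1 left out, minus each gene's mean over the 12 libraries (colour, blue below and red above), with genes in rows by class and libraries in columns. The second KO columns of both days carry the strongest colours, with SETD6 high and SMARCA5, TET1 and KAT6B low in that of day 30.

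Several members took their extreme from those libraries. SMARCA5 (SNF2H), the ATPase of ISWI complexes, was 202 in the second KO library of day 30 and 517 to 824 in the 11 others. KAT6B was 34 there and 122 to 186 elsewhere, SETD6 was 180 there and 15 to 57 elsewhere, and KDM4A was 552 there and 162 to 337 elsewhere. CHD7 had its lowest value, 106, in the second KO library of day 25, and BRD9 its lowest, 30, in the same library. Without the first KO library of day 30, which leaves the second to stand alone, 7 members would be called between KO and WT at day 30 (7.07%, against 11.4% of all genes) and 13 between OE and KO (13.1% against 15.2%), and without the second the number was 0 in both.

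Genes that work with the members were counted too. Of 58 listed partners, 54 were measured, and 4 of them rose in OE against KO at an adjusted p of 0.05, with 0 falling. Over all genes 3.3% passed, counting both directions together. They were ACTL6A, the progenitor-type BAF actin-related subunit, BCL11A, a zinc finger subunit of BAF, RCOR2, a CoREST corepressor, and BAZ1A, a partner of SMARCA5. ACTL6A was 98 and 111, then 132 and 100, in OE against 22 and 46, then 78 and 42, in KO (1.34 ± 0.30, SE, limma adjusted p = 0.0395). RCOR2 was 235 and 316, then 262 and 340, against 106 and 98, then 222 and 142 (1.08 ± 0.19, SE, adjusted p = 0.0175).

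BCL11A was 150 and 110, then 121 and 146, against 58 and 54, then 84 and 98, and BAZ1A was 122 and 145, then 141 and 142, against 66 and 24, then 94 and 24, with adjusted p values of 0.0379 and 0.0498 (limma). In both genes every OE library lay above every KO library. The neuron-type subunit ACTL6B, which replaces ACTL6A when progenitors leave the cell cycle, was 38 and 70, then 52 and 92, in OE, 40 and 29, then 74 and 24, in KO, and 40 and 45, then 104 and 122, in WT, with overlap between OE and KO. Of the other BAF subunits listed, BCL7A was lower in all KO than in all WT libraries (84 and 110, then 128 and 114, against 164 to 178). PHF10 was likewise (192 and 173, then 220 and 82, against 236 to 286), and the differences were -0.66 and -0.74 (limma adjusted p = 0.176 and 0.242). SS18 ran from 98 to 182 in KO and from 156 to 186 in WT, SS18L1 from 48 to 145 and from 128 to 232, and DPF2 from 81 to 206 and from 170 to 180. Over all genes, 3.14% had all KO libraries below all WT libraries and 2.74% had them above. Of the remaining partners, GATAD2B lay below WT in this way, by -0.51 (limma adjusted p = 0.255). BICRA and RBBP5 lay above it, by 1.27 and 0.86 (limma adjusted p = 0.13 and 0.176).

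The genes whose values ran most alike to 4 members over the 12 libraries, by Pearson's r of log2(value + 1), were listed as a description, since the libraries share genotype and day. For EZH2 they were PRC1 (0.985), LMNB1 (0.972) and C1orf21 (0.969), and for HDAC2 they included NUSAP1 (0.954) and TMSB15A (0.948). For SMARCA4 they were NUMA1 (0.857), NHSL1 (0.851) and ARMC7 (0.836), and for DNMT1 ZNHIT6 (0.889), PALS1 (0.881) and BAZ2A (0.874).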

How the data were processed

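Bulk RNA-seq was used from 12 libraries, each from pooled ThOs extracted with TRIzol and made with an rRNA-depleted, strand-specific kit (per the labels and the study's methods). The authors deposited 1 table per library with a whole-number expression score per gene. Their normalization is not given in the sources used here. The submitters' processing notes name bcl2fastq, RSEM, Bowtie2 and hg19 without roles, yet 97 of 99 members overlapped their RefSeq GRCh38.p14 position by at least 50% of the longer span. Minimum, median and maximum were the same in all libraries, with 687 to 690 distinct values, so whole-library differences cannot be seen, depth is unknown and no counting interval was given.

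Scores plus 1 were put on the log2 scale and fitted by limma 3.58.1 (R 4.3.3) in 1 model of 6 group means (6 residual and 5.29 prior degrees of freedom, trend on level), with p-values, two-sided, adjusted over 9497 genes. The filter, a value of at least 1 in 2 libraries, removed 0 genes. A call needs an adjusted p under 0.05, and where stated a 2-fold difference. The 2 libraries of a group limit precision, and the labels do not say whether they came from separate differentiations, so p-values may measure technical spread. No count model was used, as the values are not counts.

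Members and lists were chosen with earlier results of these data known. Named members were those called, the 3 largest non-overlapping differences per direction at an unadjusted p under 0.05, and a list chosen for function. Others were named after their values were seen, such as those set by 1 library. Alternatives were pseudocounts of 0.1 and 5, a mean of at least 50, no filter, median centring, quantile normalization, library weights, a replicate block, the contrasted libraries alone, changed thresholds and the removal of each library in turn. The OE against KO fit over both days was tested on simulated data with noise drawn independently for each gene. That setting does not cover a library that is extreme in many genes at once. Values of 1 member and of 1 gene resembling HDAC2 are not reported here.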

Additional observations from a re-analysis of the deposited data

Results flagged for a closer look

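Among the members named by rule or for function, CHD7 and KDM6A drew attention. Their KO minus WT differences pointed in opposite directions on the 2 days, with no overlap between the libraries on either. SMARCC1 and KMT2C, outside that set, had the same pattern, and BRD3OS was higher in KO and then lower, also without overlap. The share of all genes with such a reversal was not counted. The difference between days was 1.77 on the log2 scale for CHD7 (unadjusted p = 0.00742) and 1.61 for KDM6A (unadjusted p = 0.00174). Both had a limma adjusted p of 0.802, so neither passed, and 5.63% of all genes had an unadjusted p under 0.05 in this test. Across the alternatives run, the value stayed between 1.01 and 2.54 for CHD7 and between 1.43 and 1.79 for KDM6A. The lowest CHD7 value was the one without the second KO library of day 25, where CHD7 was listed at 106.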

How the results depend on the processing

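The main limits are 2 libraries per group, unknown depth, values already normalized in a way that fixes each library's median, and the wide spread of the KO libraries. The replicate numbers were checked for pairing: of 15 correlations of replicate deviations between groups, from -0.214 to 0.262, 1 exceeded 0.1. No pairing common to all groups was seen, and this check cannot decide whether some groups share one. With the replicate block, the number of members called between OE and KO was 1 over both days, against 2 without it, and 0 at day 25, against 1.

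Counts of members called (adjusted p under 0.05 and 2-fold) changed as follows. Between OE and KO over both days the count was 1 with a pseudocount of 5, 0 with library weights, 0 with only the libraries compared, and 4 with no fold limit. At day 25 it was 0 with library weights and 0 with only the libraries compared. Leaving out 1 library at a time gave 0 to 10 over both days, 0 to 7 at day 25 and 0 to 13 at day 30 for OE against KO (at these highest counts 964, 290 and 1441 of 9497 genes were called). For KO against WT the ranges were 0 to 2, 0 to 1 and 0 to 7 (538, 34 and 1078 genes), and for the KO effect between days 0 to 4 (189 genes). The high counts came without the first KO library of a day, and the lone library is then assumed to vary like the other groups. With an unadjusted p and a 2-fold limit, 4 members (day 25, 504 of 9497 genes) and 1 (day 30, 279) were counted for KO against WT, 13 (day 25, 814), 3 (day 30, 511) and 5 (both days, 473) for OE against KO, 1 for OE against WT (113) and 4 for the KO effect between days (379). The cause of these shifts was not tested.

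The acetylation median was -0.20 for KO against WT and 0.17 for OE against KO among genes with a mean value of at least 50. Leaving out 1 library gave medians from -0.16 to -0.0214 for acetylation and -0.14 to 0.02 for CHD between KO and WT. Over all alternatives the KO against WT medians ran from -0.21 to -0.06 for BAF and from -0.17 to -0.06 for methylation. Between OE and KO leaving out 1 library gave 0.0165 to 0.207 for BAF, 0.10 to 0.33 for methylation and 0.0735 to 0.152 for acetylation, and between the days -0.0866 to 0.0658 for CHD and -0.0167 to 0.0709 for acetylation. The JUN difference between KO and WT ran from 76.5 to 129 with a library left out, and the exact test then missed 0.05 wherever a WT library was left out. Of the 4 members called between OE and KO over both days, HDAC2 passed an adjusted p of 0.05 under 12 of 17 alternatives, HDAC9 under 10, KAT6A under 8 and CHD5 under 8. No member difference with an unadjusted p under 0.05 in the main fit (limma) reversed its direction under the alternatives. The other differences in the text, including those of the partners, were not run through them.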
